A study of Mus musculus with 16 samples.

Results

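Ebp, Msmo1, Hsd17b7, Soat1 and Scd1 encode enzymes that make cholesterol, store it as ester or make the fatty acid used for that ester. They were read in whole testes of mice that overexpress Musashi-1 or Musashi-2 and of wild-type littermates. The 5 genes were taken by symbol from the authors' deposited comparison tables, where Msmo1 stands under its older symbol Sc4mol. Each had 1 probe on the array, so 5 of the 25697 probes of the value table, and 5 of the 932 probes named in the comparison tables, are described here. All 5 came from the 700 probes of the TgMsi2 table, which the authors had limited to probes that differed between TgMsi2 and wild type, and 0 of them stand in the TgMsi1 table. The genes were thus selected on the authors' ratio and p-value for TgMsi2 against wild type. The TgMsi2 comparison is therefore given as a description with no test, and the TgMsi1 comparison, which did not choose them, was tested.

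Total RNA of whole testis from B6xCBA mice aged 3 months was read on 16 Illumina bead arrays, 4 per group. TgMsi1 mice carry a testis-specific Musashi-1 transgene and TgMsi2 mice a testis-specific Musashi-2 transgene. Wt(TgMsi1) and Wt(TgMsi2) are the wild-type littermates of the respective line, so no control array is shared between the lines. The labels name neither the promoter of the transgenes nor the testis cell type that expresses them, and they leave it unsaid whether the 4 arrays of a group come from separate animals, and p-values here therefore measure the scatter of these arrays alone, part of which may be technical. Musashi proteins bind messenger RNA and control its translation, splicing and stability. Msi1 and Msi2 stand in neither deposited comparison table, so the transgenes' own transcripts were not used here to check the labels.

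Cholesterol is built in the endoplasmic reticulum from acetyl-CoA by way of lanosterol, whose ring is then trimmed and rearranged. Msmo1 is the sterol oxidase that starts removal of the methyl groups next to the ring's hydroxyl group, and Hsd17b7 is the ketosteroid reductase that ends each round of that removal. Ebp then shifts a ring double bond as a sterol isomerase. Soat1 joins free cholesterol to a fatty acid and so makes the cholesteryl ester of lipid droplets. Scd1 desaturates stearate to oleate, a fatty acid that Soat1 uses readily. In the testis, Leydig cells use cholesterol to make testosterone and keep it in ester droplets, and germ cells and Sertoli cells also make sterols. In mammals, the transcription factors of the SREBP family raise the transcription of cholesterol and fatty acid synthesis genes when cell sterol is low, often together with NF-Y, which binds CCAAT boxes.

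The promoters of the 3 cholesterol synthesis genes are shown as those of 1 pathway. Their signals were higher in the same arrays, but so were those of Soat1 and Scd1. Each line gives the 250 bases before the transcription start in RefSeq, on build GRCm38.p6, 5' to 3' on the gene's strand, with CCAAT or its reverse complement ATTGG in capitals.
Msmo1 (chr8:64733579-64733828, minus strand): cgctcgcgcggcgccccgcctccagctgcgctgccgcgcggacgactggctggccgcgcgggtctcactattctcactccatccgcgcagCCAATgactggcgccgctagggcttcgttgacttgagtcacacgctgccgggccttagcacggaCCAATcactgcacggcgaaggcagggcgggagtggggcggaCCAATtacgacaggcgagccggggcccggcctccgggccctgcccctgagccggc
Hsd17b7 (chr1:169969206-169969455, minus strand): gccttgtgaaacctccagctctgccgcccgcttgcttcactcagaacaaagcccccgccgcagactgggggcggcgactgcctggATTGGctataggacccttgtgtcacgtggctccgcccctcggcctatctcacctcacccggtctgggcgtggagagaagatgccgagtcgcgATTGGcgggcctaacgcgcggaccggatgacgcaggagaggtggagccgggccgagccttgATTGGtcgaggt
Ebp (chrX:8193513-8193762, minus strand): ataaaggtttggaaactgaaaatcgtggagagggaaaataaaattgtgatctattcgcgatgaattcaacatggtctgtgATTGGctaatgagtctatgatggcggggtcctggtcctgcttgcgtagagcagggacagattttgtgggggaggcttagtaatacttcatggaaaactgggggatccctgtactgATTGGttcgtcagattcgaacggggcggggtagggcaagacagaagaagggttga

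The RefSeq table held a promoter for 4 of the 5 genes, Scd1 being the one not matched. CCAAT was searched on both strands and occurred in all 4, with 3 matches for Msmo1, 3 for Hsd17b7, 2 for Ebp and 1 for Soat1. Of 32851 promoter windows of the same length in the table, 33.8% held at least 1 match and 2.79% held 3 or more. The nearest match lay 51 bases before the start in Msmo1, 8 in Hsd17b7, 51 in Ebp and 26 in Soat1. The GC box GGGCGG, searched on both strands, occurred 2 times for Msmo1, 3 times for Hsd17b7, 1 time for Ebp and 0 times for Soat1, against at least 1 match in 32.7% of all windows. The E-box CACGTG occurred for Hsd17b7 alone among the 4 (6.02% of all windows). The sterol regulatory element letters TCACNCCAC occurred in 0 of the 4 windows and in 1.05% of all windows. No match of one motif overlapped a match of another, and a match describes letters only.

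The arrays did not lie evenly within their groups, and this touches every value below. On the first principal component of all 25697 probes, which held 40.9% of the variance, TgMsi2 replicates 1 and 3 lay at 35.3 and 30.2, and TgMsi2 replicates 2 and 4 at 13.6 and 9.2. TgMsi1 replicate 2 lay at 10.7, and the other 11 arrays lay between -16.4 (Wt(TgMsi2) replicate 3) and -3.5. Log2 values of the table ran from 7.37 to 14.51 with a median of 7.83 on each array. The 5 probes were brighter than 76.9% to 82.2% of all probes in their mean over the 16 arrays.

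In TgMsi2 testes, the group mean of each of the 5 genes was the highest of the 4 groups. The differences from wild-type littermates ran from 0.68 to 1.28 on the log2 scale, with a median of 0.72, against a median of -0.004 over all probes. All 5 were at least 1.5-fold higher, as the choice of the genes required, and 1.62% of all probes were. Of the 5, 1 gene (Soat1) had all 4 transgenic arrays above all 4 wild-type arrays, and 7.6% of all probes did. Nothing is read from either count, since both come from the contrast that chose the genes.

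Msmo1, the oxidase of the methyl trimming steps, had the widest difference of the 5. Its log2 signal was 10.73, 9.92, 10.89 and 10.13 in TgMsi2 replicates 1 to 4 and 9.50, 8.59, 8.42 and 10.04 in Wt(TgMsi2) replicates 1 to 4. Replicates 1 and 3 of TgMsi2 were high, and Wt(TgMsi2) replicate 4 reached into the transgenic range, so the groups overlapped by 1 transgenic array. The mean was 10.42 ± 0.46 in TgMsi2 and 9.14 ± 0.77 in wild type (SD, n = 4 each), a log2 difference of 1.28 (SE 0.39) or 2.43-fold. The wild-type arrays alone, from 8.42 to 10.04, spread wider than that difference.

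Hsd17b7, the reductase of the same trimming steps, measured 10.03, 9.17, 9.68 and 9.09 in TgMsi2 replicates 1 to 4 and 9.16, 9.09, 8.29 and 8.74 in Wt(TgMsi2) replicates 1 to 4. TgMsi2 replicates 1 and 3 were high, replicate 2 lay just above the highest wild-type array, and replicate 4 lay within the wild-type range. The log2 difference was 0.68 (SE 0.23), from 8.82 ± 0.40 to 9.49 ± 0.44 (SD, n = 4 each), or 1.6-fold.

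Ebp, the isomerase, measured 10.48, 9.96, 10.13 and 9.65 in TgMsi2 and 9.67, 9.32, 9.11 and 9.24 in Wt(TgMsi2), in replicate order. The lowest transgenic array, replicate 4, lay just under the highest wild-type array, replicate 1. The log2 difference was 0.72 (SE 0.15), from 9.34 ± 0.24 to 10.06 ± 0.35 (SD, n = 4 each), or 1.65-fold, and Ebp had the smallest SE of the 5.

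Soat1, the cholesterol esterifying enzyme, measured 10.43, 9.66, 10.10 and 9.76 in TgMsi2 and 9.49, 9.28, 8.97 and 9.35 in Wt(TgMsi2), in replicate order. Its groups did not overlap, and the gap between the lowest transgenic and the highest wild-type array ran from 9.49 to 9.66. The log2 difference was 0.71 (SE 0.17), from 9.28 ± 0.22 to 9.99 ± 0.35 (SD, n = 4 each), or 1.64-fold.

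Scd1, the desaturase, measured 10.48, 9.69, 9.90 and 9.19 in TgMsi2 and 9.24, 9.56, 8.44 and 8.71 in Wt(TgMsi2), in replicate order. TgMsi2 replicate 4 lay below Wt(TgMsi2) replicates 1 and 2, and the other 3 transgenic arrays lay above all wild-type arrays of the line. The log2 difference was 0.83 (SE 0.31), from 8.99 ± 0.50 to 9.82 ± 0.54 (SD, n = 4 each), or 1.77-fold. Scd1 has close paralogs in the mouse (Scd2, Scd3 and Scd4), and whether its probe also reads them was not tested.

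**Figure D1:**
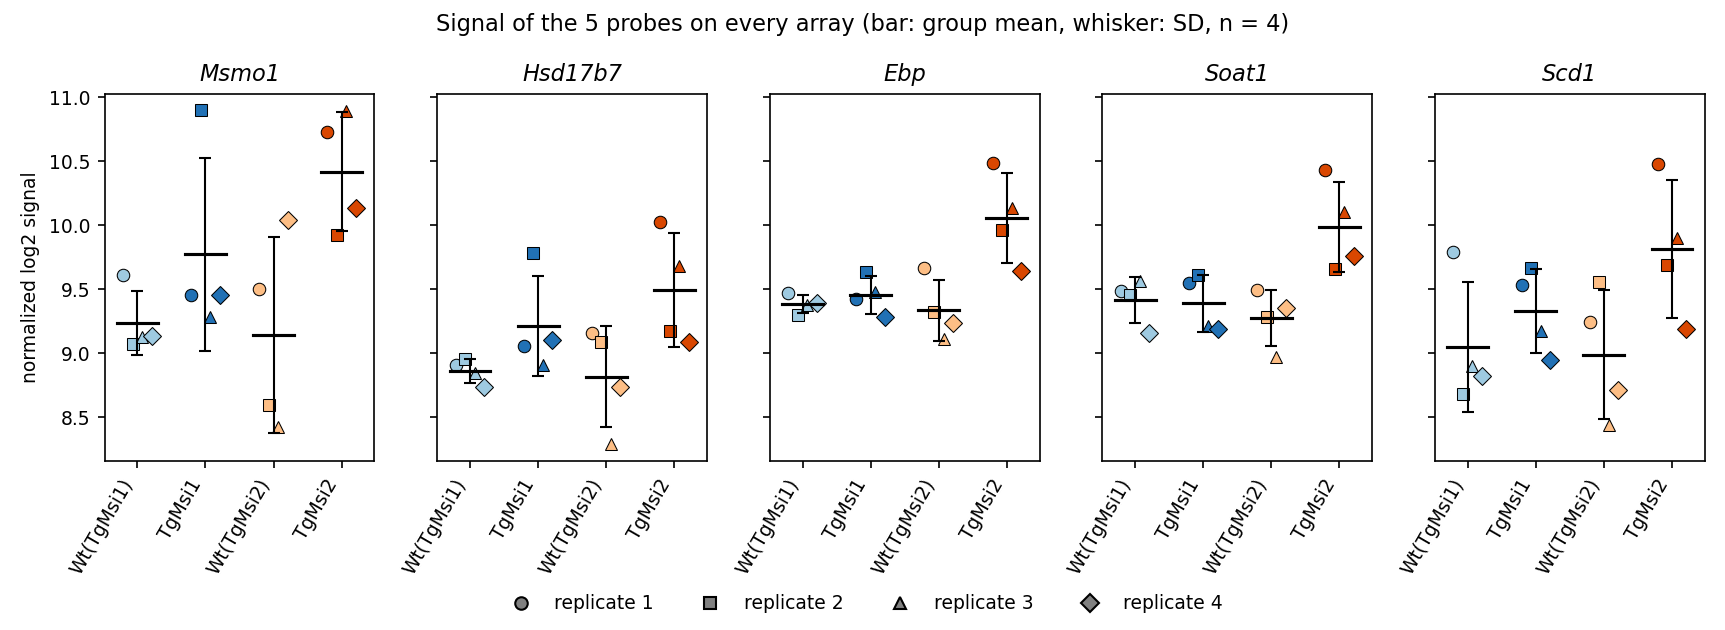
Normalized log2 signal (vertical axis) of the 5 probes on each of the 16 arrays by group, with replicate numbers as marker shapes, group means as bars and SD as whiskers (n = 4). TgMsi2 replicates 1 and 3 are the highest TgMsi2 arrays in all 5 panels, and Wt(TgMsi2) replicate 3 is the lowest of all 16 arrays in all 5.

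In the authors' deposited table the genes with the largest p-values of the 5 were Scd1 (p = 0.0273, ratio 1.77) and Hsd17b7 (p = 0.0233, ratio 1.60). Over all probes of that table the largest p was 0.0488 and the smallest fold, in either direction, 1.5. In the authors' deposited table Ebp had a p of 0.000462, Soat1 of 0.0011 and Msmo1 of 0.0113. The array design holds no further probe for any of the 5 genes, so no probe of these genes is missing from that table.

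The same arrays were high or low across the 5 genes. TgMsi2 replicates 1 and 3 were the highest TgMsi2 arrays in 5 of 5 genes, Wt(TgMsi2) replicate 3 was the lowest of all 16 arrays in 5 of 5, and TgMsi1 replicate 2 was the highest TgMsi1 array in 5 of 5. The mean of the 5 genes, each centred on its own 16-array mean, was 1.01 and 0.72 in TgMsi2 replicates 1 and 3 and 0.26 and 0.14 in replicates 2 and 4. It was 0.50 in TgMsi1 replicate 2 and -0.78 in Wt(TgMsi2) replicate 3, and it lay between -0.37 and 0.03 in the other 10 arrays. TgMsi2 replicates 1 and 3 were the highest arrays both in this mean and on the first principal component. Wt(TgMsi2) replicate 3 was the lowest on both, but on the component it lay near other wild-type arrays (-16.4 beside -13.4 and -12.4). TgMsi1 replicate 2 lay above TgMsi2 replicates 2 and 4 in the mean and between them on the component. The part of that axis in the differences was not tested. Without TgMsi2 replicates 1 and 3 the log2 differences from wild type were 0.89 for Msmo1, 0.31 for Hsd17b7, 0.47 for Ebp, 0.43 for Soat1 and 0.45 for Scd1, a comparison of 2 transgenic with 4 wild-type arrays added after seeing the data.

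**Figure D2:**
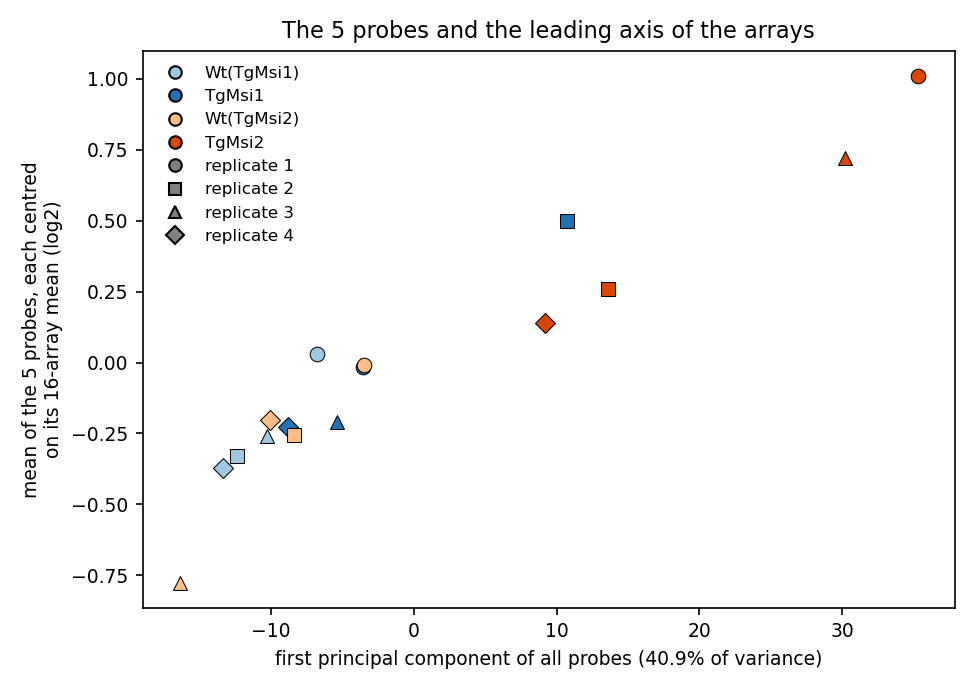
Each point is 1 array. The horizontal axis is its position on the first principal component of all probes (arbitrary units), the vertical axis the mean of the 5 probes after each was centred on its 16-array mean (log2 units). TgMsi2 replicates 1 and 3 lie at the upper right (1.01 and 0.72), and Wt(TgMsi2) replicate 3 at the lower left (-0.78).

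In TgMsi1 testes the 5 genes showed no difference from littermates that exceeded replicate scatter. In limma, 0 of 5 passed an adjusted p of 0.05, and only 0.0117% of all probes did. An unadjusted p under 0.05 was found for 0 of 5, against 7.32% of all probes. With so few probes called, 0 of 5 says little about these genes in particular. The pooled scatter includes the arrays of the TgMsi2 line, which chose the genes. From the TgMsi1 line's own 8 arrays the SE was smaller for each gene. It was 0.07 against 0.15 for Ebp, 0.17 against 0.23 for Hsd17b7 and 0.34 against 0.39 for Msmo1. There too 0 of 5 passed, with a lowest limma adjusted p of 0.764. The log2 differences had a median of 0.28, with 4 of 5 above 0, against a median of 0 over all probes. In 0 of the 5 genes did all 4 TgMsi1 arrays lie above all 4 wild-type arrays (1.88% of all probes).

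Msmo1 measured 9.46, 10.90, 9.28 and 9.46 in TgMsi1 replicates 1 to 4 and 9.61, 9.07, 9.13 and 9.14 in Wt(TgMsi1) replicates 1 to 4. Replicate 2 of TgMsi1 was the highest of all 16 arrays for Msmo1. The other 3 lay below Wt(TgMsi1) replicate 1 and above the rest of their littermates. The log2 difference was 0.54 (SE 0.39), with a 95% confidence interval from -0.30 to 1.38 (limma adjusted p = 0.835). It was 0.16 without TgMsi1 replicate 2 and 0.66 without Wt(TgMsi1) replicate 1. For Hsd17b7 the values were 9.06, 9.78, 8.91 and 9.10 in TgMsi1 and 8.90, 8.95, 8.85 and 8.74 in Wt(TgMsi1), in replicate order. Replicate 2 was again the high array, while 3 of the 4 TgMsi1 arrays lay above all wild-type arrays of the line. The log2 difference for Hsd17b7 was 0.35 (SE 0.23), with a 95% confidence interval from -0.15 to 0.86 (limma adjusted p = 0.819), and it was 0.16 without TgMsi1 replicate 2.

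Ebp measured 9.43, 9.63, 9.48 and 9.28 in TgMsi1 and 9.47, 9.30, 9.38 and 9.40 in Wt(TgMsi1), in replicate order. Of the TgMsi1 arrays, 2 lay above and 1 lay below all wild-type arrays. The log2 difference for Ebp was 0.07 (SE 0.15), with an interval from -0.25 to 0.39 (limma adjusted p = 0.957). Soat1 measured 9.55, 9.62, 9.21 and 9.19 in TgMsi1 and 9.48, 9.46, 9.56 and 9.16 in Wt(TgMsi1), and 1 TgMsi1 array lay above all wild-type arrays. The log2 difference for Soat1 was -0.02 (SE 0.17), with an interval from -0.38 to 0.33 (limma adjusted p = 0.988). Whether the effects of the transgenes differ was not tested for any of the 5 genes, since the choice of the genes fixed the TgMsi2 side.

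Scd1 measured 9.54, 9.67, 9.17 and 8.95 in TgMsi1 and 9.79, 8.68, 8.90 and 8.82 in Wt(TgMsi1), in replicate order. Wt(TgMsi1) replicate 1 was higher than every TgMsi1 array, and the other 3 wild-type arrays were lower than every TgMsi1 array. The log2 difference was 0.28 (SE 0.31), with an interval from -0.38 to 0.95 (limma adjusted p = 0.903). It was 0.17 without TgMsi1 replicate 2 and 0.53 without Wt(TgMsi1) replicate 1. The intervals of Msmo1, Hsd17b7 and Scd1 hold 0, as do those of Ebp and Soat1.

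**Figure D3:**
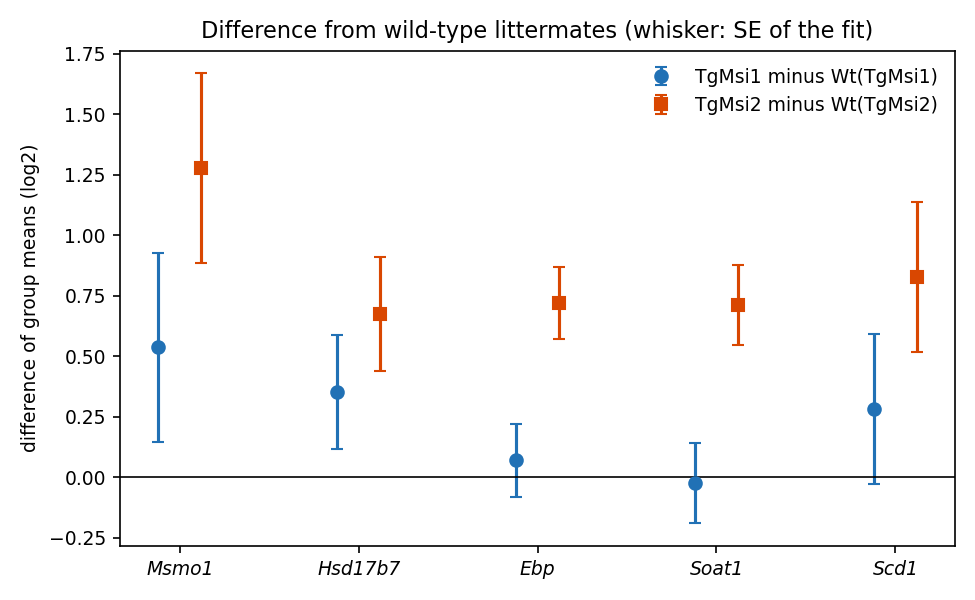
Log2 difference of the transgenic group mean from the mean of its wild-type littermates (vertical axis) for each gene (horizontal axis) in both lines, with the SE of the limma fit as whiskers (n = 4 arrays a group). The TgMsi1 points lie between -0.02 and 0.54 and the TgMsi2 points between 0.68 and 1.28; the genes were chosen for the TgMsi2 values.

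The order of the group means was TgMsi2, TgMsi1, Wt(TgMsi1), Wt(TgMsi2) for 4 genes, and for Soat1 the means of TgMsi1 (9.39) and Wt(TgMsi1) (9.42) changed places. The wild-type means of the lines lay close together, with Wt(TgMsi2) minus Wt(TgMsi1) between -0.14 for Soat1 and -0.04 for Hsd17b7, each smaller than the SD within Wt(TgMsi2). TgMsi2 minus TgMsi1 was 0.65 for Msmo1, 0.60 for Ebp, 0.60 for Soat1, 0.48 for Scd1 and 0.28 for Hsd17b7. For Hsd17b7 and Scd1 these differences were smaller than the SD within TgMsi2 (0.44 and 0.54). The comparisons with Wt(TgMsi2) and TgMsi2 use the arrays that chose the genes and carry no test.

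With the 4 groups pooled, the 5 genes varied between replicates more than most transcripts. The pooled SD within groups was 0.60 for Msmo1, 0.48 for Scd1, 0.36 for Hsd17b7, 0.25 for Soat1 and 0.23 for Ebp. The median over the 10831 probes with a mean log2 above 8 was 0.14, and Msmo1 lay above 99.6% of them and Ebp, the steadiest of the 5, above 86.0%. The 4 Wt(TgMsi1) arrays were close for Hsd17b7 (8.74 to 8.95) and Ebp (9.30 to 9.47) and wide for Scd1 (8.68 to 9.79). Their SD lay above that of 53.2% of all probes for Ebp and 65.9% for Hsd17b7. It lay above 87.7% for Soat1, 95.7% for Msmo1 and 99.7% for Scd1. In Wt(TgMsi2) the widest range was that of Msmo1, from 8.42 to 10.04.

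Over all 16 arrays, the named gene with the profile nearest to Hsd17b7 among 768 genes compared was Acly, ATP-citrate lyase, which makes the cytosolic acetyl-CoA used for sterols and fatty acids. After each probe was centred on its mean, they differed by a root mean square of 0.10 log2 units. Acly measured 12.37, 11.35, 12.06 and 11.60 in TgMsi2 replicates 1 to 4, 11.47, 11.43, 10.84 and 11.03 in Wt(TgMsi2), and 12.03 in TgMsi1 replicate 2. TgMsi2 replicates 1 and 3 and TgMsi1 replicate 2 were high for both genes, and Wt(TgMsi2) replicate 3 was low. The choice of Acly as the nearest profile made this likely. The lowest TgMsi2 array was replicate 2 for Acly and replicate 4 for Hsd17b7. Next came the prolactin receptor Prlr (0.15) and the chemokine Cxcl12 (0.175). For Msmo1 the nearest were the tropomyosin Tpm4 (0.34), the fatty acid elongase Elovl5 (0.38) and the acid ceramidase Asah1 (0.38). All of these names come from tables selected for a change, mostly in TgMsi2, which limits what could be found.

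For Ebp the nearest genes were the glycolytic enzyme Gapdh (0.11), the fatty acid dehydrogenase Acadm (0.11) and the ceramide synthase Cers2 (0.11), and for Soat1 they were Gapdh (0.12), the small GTPase Rap1b (0.13) and Cers2 (0.13). Gapdh has many near-identical pseudogene copies, so the identity of its signal is uncertain. For Scd1 the nearest were the pantothenate kinase Pank1 (0.21), the lysosomal membrane protein Lamp2 (0.23) and the isocitrate dehydrogenase Idh1 (0.24). Each of the 5 genes lay farther from the others of the 5 than from its own nearest genes. The choice of the nearest among 768 genes made this likely, so nothing is read from it. Among the 5, Ebp and Soat1 were closest, at 0.15, where Ebp ranked 14 of 768 for Soat1 and Soat1 ranked 49 for Ebp. Msmo1 and Scd1 were farthest apart, at 0.56. The root mean square also grows with the spread of a gene. Msmo1 and Scd1 had the widest pooled SD within groups of the 5 (0.60 and 0.48). Whether their patterns differ apart from this spread was not tested.

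**Figure D4:**
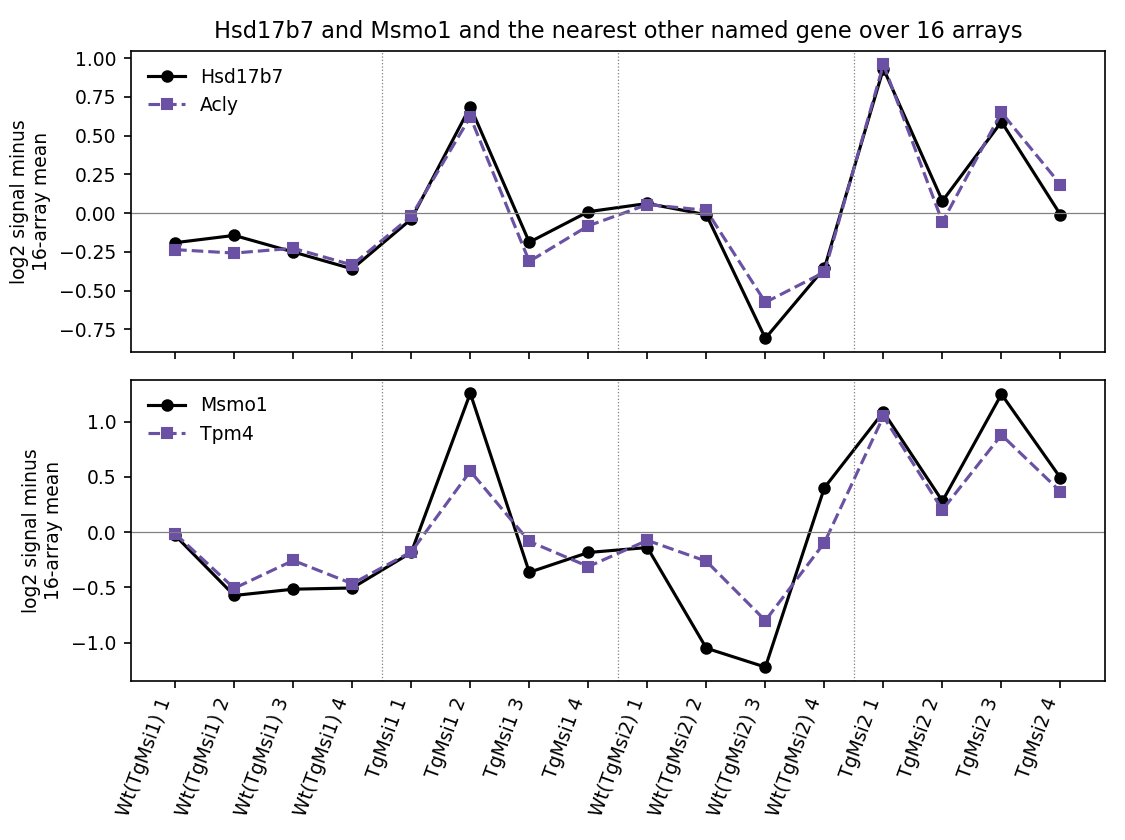
Log2 signal minus the 16-array mean (vertical axis) on the 16 arrays in group order (horizontal axis) for Hsd17b7 with Acly and for Msmo1 with Tpm4, the nearest other named gene of each. Hsd17b7 and Acly differ by a root mean square of 0.10 and Msmo1 and Tpm4 by 0.34, with Msmo1 at 1.26 and Tpm4 at 0.55 in TgMsi1 replicate 2.

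Other genes of the pathways were taken from lists of known members, and a gene has a name here only if a deposited comparison table lists it. Of 16 cholesterol synthesis genes on the array, the authors' deposited TgMsi2 table lists 3, all higher, and these are Msmo1, Hsd17b7 and Ebp themselves. The remaining genes of that list are not in the table, so they have no value here, and their absence does not show that they were unchanged. Of 12 sterol sensing and uptake genes, 0 are listed. Of 17 genes of ester storage and efflux, Soat1 is the 1 listed. For comparison, 2.03% of the 18097 gene symbols on the array are listed as higher and 1.43% as lower. The TgMsi1 table lists 0 genes of these lists.

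Fatty acid synthesis and desaturation had 5 of 22 genes in the authors' deposited TgMsi2 table, all higher, which include Scd1. The others were the desaturase Fads1, with a log2 difference of 1.11 (SE 0.34), Elovl5 with 0.93 (SE 0.24), Acly with 0.66 (SE 0.22) and the desaturase Fads2 with 0.61 (SE 0.21). In TgMsi1 the differences of the same genes were 0.34 for Fads1, 0.37 for Elovl5, 0.32 for Acly and 0.12 for Fads2, and 0 of the 5 passed limma's threshold (adjusted p from 0.803 to 0.944). The summed signal of the 5 genes (log2 of the sum of linear values) was 14.87 in TgMsi2 replicate 1 and 14.48 in replicate 3, and 13.99 and 13.86 in replicates 2 and 4. It was 14.23 in TgMsi1 replicate 2 and 12.60 in Wt(TgMsi2) replicate 3. These arrays are the ones that were high and low for the 5 genes described above. Scd1 belongs to both sets, and the other summed genes were listed for being higher in TgMsi2. Part of this likeness was therefore built in, and nothing is read from it.

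Listed markers of several testis cell types also differed between the groups, and their part in the 5 genes' differences was not tested. The sums below rest only on genes that a deposited table lists for a change. In bulk RNA, more cells of a type, more RNA per cell and a smaller share of RNA from other cells cannot be told apart. Of 20 Leydig cell and steroidogenesis genes on the array, 6 are in the authors' deposited TgMsi2 table, all higher, and their summed log2 signal ran from 14.48 to 15.30 in TgMsi2, 13.78 to 14.35 in Wt(TgMsi2), 13.89 to 14.49 in TgMsi1 and 13.58 to 14.11 in Wt(TgMsi1). Among them Cyp11a1, which turns cholesterol into pregnenolone, had a TgMsi2 log2 difference of 1.05, and Insl3, a hormone of Leydig cells, one of 0.87. The Leydig sum was highest in TgMsi2 replicates 1 (15.30) and 3 (15.13), and TgMsi1 replicate 2 (14.49) was the highest of its group, as in the 5 genes. Wt(TgMsi2) replicate 3 (13.78) was the lowest of its group, and Wt(TgMsi1) replicate 2 (13.58) the lowest of all 16 arrays. The others among the 5 largest TgMsi2 log2 differences of the list's 6 genes were Vcam1 (1.285), Akr1cl (1.06) and Hsd17b3 (0.78), which makes testosterone. Star and Cyp17a1 are not in the tables.

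Of 16 Sertoli cell genes on the array 5 are listed, all higher, and their summed log2 signal ran from 15.31 to 15.84 in TgMsi2, 14.87 to 15.09 in Wt(TgMsi2), 14.88 to 15.29 in TgMsi1 and 14.77 to 15.16 in Wt(TgMsi1). The Sertoli genes were Shbg (0.72), Cldn11 (0.66), Rhox5 (0.63), Amhr2 (0.63) and Aard (0.59), in TgMsi2 log2 differences, and TgMsi2 replicates 1 and 3 had the highest sums (15.84 and 15.80), while Wt(TgMsi2) replicate 3 (14.95) was not the lowest of its group (14.87). Of 16 macrophage and immune cell genes 4 are listed as higher, with sums from 11.38 to 11.59 in TgMsi2, 10.49 to 10.73 in Wt(TgMsi2), 10.48 to 10.70 in TgMsi1 and 10.42 to 10.75 in Wt(TgMsi1). Here TgMsi2 replicate 3 had the lowest sum of its group (11.38) and TgMsi1 replicate 2 (10.52) lay within the range of its littermates. Of 18 spermatid genes 5 are listed as lower in TgMsi2. The lowest was Prm3, a protamine-related gene, with -1.45. With 1 further gene that the TgMsi1 table lists, the summed log2 signal of 6 spermatid genes ran from 14.19 to 14.58 in TgMsi2, 14.97 to 15.08 in Wt(TgMsi2), 14.14 to 14.70 in TgMsi1 and 14.70 to 14.99 in Wt(TgMsi1). The lowest spermatid sums of all 16 arrays were those of TgMsi1 replicate 2 (14.14), TgMsi2 replicate 1 (14.19) and TgMsi2 replicate 3 (14.24), arrays in which the 5 genes were high. Of 15 spermatocyte genes, Aurkc is listed as lower in TgMsi2 and Ccna1 in TgMsi1, and the sum of the 2 ran from 11.86 to 12.23 in TgMsi2, 12.17 to 12.37 in Wt(TgMsi2), 11.69 to 11.97 in TgMsi1 and 11.87 to 12.30 in Wt(TgMsi1).

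Scd1 is abundant in fat cells, whose markers were therefore read too. Of 15 adipocyte genes on the array, 1 is listed, the fat cell hormone Adipoq, and it was lower in TgMsi2. Its log2 signal ran from 8.63 to 9.15 in TgMsi2, 10.44 to 11.11 in Wt(TgMsi2), 8.49 to 9.79 in TgMsi1 and 9.31 to 10.88 in Wt(TgMsi1). Adipoq was lower in the TgMsi2 arrays, in which Scd1 was higher. It is 1 of 15 fat cell genes and was itself listed for its TgMsi2 change. Fat cell markers other than Adipoq are not named in the tables. The part of fat cells in the Scd1 signal was not tested.

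The probes lie on the minus strand of chromosome 8 (67610701 to 67610750) for Msmo1, chromosome 1 (171879732 to 171879781) for Hsd17b7, chromosome X (7762840 to 7762889) for Ebp, chromosome 1 (158359958 to 158360007) for Soat1 and chromosome 19 (44469114 to 44469163) for Scd1. These positions are as the deposited tables give them, with no build named, and in GRCm38 all 5 fall outside the gene. Each probe is 50 bases long and carries 1 transcript accession in the tables, and whether it lies in coding or untranslated sequence is not annotated there.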

How the data were processed

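Total RNA from 16 testes samples, in 4 groups of 4 taken from the sample titles, was read on Illumina mouse bead arrays with biotinylated cRNA, per the labels' protocols. GenomeStudio is named in the submitters' processing notes. The authors deposited normalized log2 values for 25697 probes; their method is not stated there. The sorted values of any pair of arrays differ by at most 0.006, as after quantile normalization. The lowest value is 7.37, and differences of dim probes may be compressed. The authors also deposited 2 comparison tables with an unadjusted p-value, a linear ratio and a signed fold change (a score) per probe, per the file headers. Their ratios match the group means of the value table to within 5.9e-06 on the log2 scale. A table of unnormalized signals has 128 columns whose headers match none of the sample labels, so their values were left aside; its symbol column served to count the genes on the array. Background correction and the slide as a block, which were planned, need those columns and were not run. Arrays give no read depth, and their number limits the precision. No 2 arrays were identical (0 pairs).

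TgMsi1 was compared with Wt(TgMsi1) in limma 3.58.1 under R 4.3.3 (1 mean per group over 16 arrays, eBayes), with Benjamini-Hochberg adjustment over all probes, a threshold of 0.05 and no filter, and the fit was tested on simulated data. The SE of both lines' differences comes from that fit. The replicate number as a block, limma options, array weights, a filter on dim probes, the line's own arrays and leaving out arrays were tried as alternatives. Every member is named; of each gene list up to 5 genes listed in a deposited table, the largest TgMsi2 differences first, and for each member the 3 nearest genes without predicted genes or clones. The members, lists and rules were chosen with earlier results of these data known. Symbols were updated through Entrez numbers from RefSeq (GRCm38.p6), which is also the source of the promoters.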

Additional observations from a re-analysis of the deposited data

Results flagged for a closer look

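Among 20 sets of 4 arrays (5 genes in 4 groups), 2 had 1 array set apart from the rest of its group by more than Dixon's critical value for 4 samples at 95%, both for Msmo1. Chance alone marks about 1 set in 20. In TgMsi1, replicate 2 measured 10.90 for Msmo1 and the next array 9.46, a gap of 0.89 of the range. The same array was the highest of its group for the other 4 genes too, and it lay at 10.7 on the first principal component. In Wt(TgMsi1), replicate 1 measured 9.61 for Msmo1 and the next array 9.14, a gap of 0.875 of the range. That array was also the highest of its group for Scd1, at 9.79.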

How the results depend on the processing

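In the TgMsi1 comparison, 0 of the 5 genes passed limma's threshold in any setting that was run. In the line's other 7 arrays without TgMsi1 replicate 2, 1 of the 5 had an unadjusted p under 0.05 in limma. That setting was added after seeing the data. With the replicate number as a block (replicate block) the lowest adjusted p of the 5 was 0.712, and with 1 array of the 16 left out it was 0.707 to 0.967, with 0 genes called. The log2 differences with 1 array left out ran from 0.16 to 0.70 for Msmo1, 0.16 to 0.46 for Hsd17b7, 0.01 to 0.13 for Ebp, -0.11 to 0.04 for Soat1 and 0.16 to 0.53 for Scd1. The count of all probes called in TgMsi1 was 3 and was not stable. It was 8 among probes with a mean log2 above 8, 7 with limma's trend and robust options, 5 with array weights and 17 with the replicate block. Limma called 0, with 1791 probes at an unadjusted p under 0.05, from the line's own 8 arrays, and 0 (1616 unadjusted) from those without TgMsi1 replicate 2. With 1 array left out it ran from 0 to 30 (1576 to 2019 unadjusted), 30 without Wt(TgMsi1) replicate 2, and the cause was not tested. Same-numbered transgenic and wild-type arrays deviated together with r from -0.29 to 0.44, over 0.1 in 5 of 8 pairs, so the numbers were not taken to pair the samples, and 3 of 8 transgenic arrays correlated best with the wild-type array of their own number. In TgMsi2, the differences with 1 of the line's arrays left out ran from 1.04 to 1.58 for Msmo1 and 0.50 to 0.81 for Hsd17b7. They ran from 0.58 to 0.86 for Ebp, 0.57 to 0.82 for Soat1 and 0.61 to 1.04 for Scd1. All these differences lay above 0, which the choice of the genes on this contrast made likely, so nothing is read from the sign. Their median ran from 0.58 to 0.86, and it was 0.45 without TgMsi2 replicates 1 and 3. Dim probes near the median of 7.83 may understate change, and the 5 genes lie above it.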
